A study of Mus musculus with 24 samples.

Results

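The 9 imprinted growth genes H19, Meg3, Cdkn1c, Grb10, Plagl1, Ndn, Peg3, Dlk1 and Mest were followed through 24 mammary tumour libraries. They were taken by symbol from the 46318 gene IDs of the count files. Every tumour came from a mouse carrying MMTV-PyMT, a transgene in which a mouse mammary tumour virus promoter drives the polyoma middle T oncogene mainly in mammary epithelium. The groups were 12 tumours labelled KO (SHP KO) and 12 labelled WT (SHP WT), SHP being the orphan nuclear receptor encoded by Nr0b2. Tumours were taken at a volume of 2000 mm3 and whole frozen tissue was homogenised. No source used here gives the age or strain of the mice, or whether any tumours shared an animal, so p-values measure the spread between these tumour libraries.

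Genomic imprinting leaves a gene active on the chromosome from only 1 parent. H19, Meg3, Cdkn1c and, in most tissues, Grb10 are read from the maternal copy, and their products are mostly known for restraining growth. Plagl1, Ndn, Peg3, Dlk1 and Mest are read from the paternal copy. Many imprinted genes are high in the fetus and placenta and decline after birth. Gene counts do not separate the parental copies, so loss of imprinting was not measured.

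Libraries held between 18789250 and 38022182 reads in genes. Levels are given as CPM, counts relative to a library's total after TMM scaling, and 3 reads corresponded to between 0.0789 and 0.16 CPM. The deleted gene went against the labels. Nr0b2 had 182 reads in the libraries labelled KO, with at least 1 in 12 of 12, and 1 read in those labelled WT, and its log2 change was 6.53 ± 0.84 (SE, adjusted p = 7.26e-05, edgeR). It failed the filter for low counts, so this value came from an extended fit, and its KO median was 0.277 CPM. The counts do not show which exons the Nr0b2 reads came from, and every direction below is between libraries labelled KO and libraries labelled WT. The 8 markers of luminal epithelium summed to between 4138 and 8990 CPM, so epithelial RNA was present in every library. No measure here separated tumour from normal epithelium. KO 11 carried the highest summed adipocyte (4599 CPM), skeletal muscle (5184 CPM), T cell (119 CPM) and B cell (215 CPM) markers.

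Promoter windows of 300 bases, from 250 before to 50 after a transcription start, were present in the RefSeq table (build GRCm38.p6) for 7 of the 9 genes, and for neither H19 nor Cdkn1c. Those of Meg3 and Ndn are shown because these members varied together across the tumours, as described below. Capitals mark CpG dinucleotides, the sites at which imprinted genes carry DNA methylation, which was not measured here.
Meg3, chr12:109540746-109541045, plus strand: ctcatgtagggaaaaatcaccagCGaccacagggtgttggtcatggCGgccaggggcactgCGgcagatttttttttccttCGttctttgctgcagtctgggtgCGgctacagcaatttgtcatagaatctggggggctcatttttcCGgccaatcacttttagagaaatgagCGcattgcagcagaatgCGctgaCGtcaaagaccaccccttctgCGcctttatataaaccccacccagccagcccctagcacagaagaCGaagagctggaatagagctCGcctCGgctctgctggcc
Ndn, chr7:62348027-62348326, plus strand: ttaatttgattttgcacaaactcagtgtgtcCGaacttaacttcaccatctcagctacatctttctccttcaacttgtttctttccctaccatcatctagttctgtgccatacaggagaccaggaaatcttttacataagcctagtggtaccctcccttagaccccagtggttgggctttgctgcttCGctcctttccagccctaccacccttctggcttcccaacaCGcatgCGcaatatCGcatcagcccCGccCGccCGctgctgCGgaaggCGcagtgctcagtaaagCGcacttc
This Meg3 window held 13 CpG and the Ndn window 11, against a median of 7 in 32851 such windows. Both lay between the quartiles of those windows, 3 and 20. The table has a further Meg3 window, at chr12:109545148-109545447, with 1 CpG and none of the motifs below. Both strands of the 11 windows of the members were searched for 4 motifs, chosen after expression values were known. TATAAA occurred at position 226 of the Meg3 window on the strand shown and, overlapping it on the opposite strand, at position 222. On either strand it occurred in 13.6% of all windows. GGGGCCCC, a PLAGL1 motif, occurred at position 50 of the Peg3 window (1.08% of all windows), and the palindromic EBF motif in 1 Grb10 window (0.904%). GCCATNTT, a YY1 motif, had no match in the members' windows (6.05% of all windows).

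Of the members, 3 are also host genes of microRNAs. The mature 5p arms are shown from RefSeq to identify them, with the seed (bases 2 to 8) in capitals, and no seed is shared among them.
miR-675-5p, host H19: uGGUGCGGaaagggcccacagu
miR-770-5p, host Meg3: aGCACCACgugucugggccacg
miR-335-5p, host Mest: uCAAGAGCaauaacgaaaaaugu
The rows of Mir675, Mir770 and Mir335 held 0 reads in every library. The libraries were made from messenger RNA, and Mir675 and Mir770 lie within exons of their hosts, where the recorded counting command assigns a read to neither gene.

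The question put to the groups was whether tumours labelled KO and WT differed in these genes. In edgeR's quasi-likelihood test, none of the 9 had an adjusted p under 0.05, against 0.316% of the 15820 genes tested (50 genes, 0.177% higher and 0.139% lower in KO). Of the members, 8 passed the low-count filter, and Dlk1, which failed it, was added in an extended fit. Mest and Ndn, 2 of these 8, had an unadjusted p under 0.05, as did 18.9% of all genes tested (10% higher and 8.90% lower in KO libraries). Ndn was the 1 member on the higher side and Mest the 1 on the lower side. DESeq2 also called 0 members, against 501 of 33552 genes over all, and 2 members had an unadjusted p under 0.05. With limma voom 0 members were called, against 69 of 15820 genes, and 0 had an unadjusted p under 0.05. For these 2 methods the share of all genes at an unadjusted p under 0.05 was not counted. The median log2 change of the 8 members was 0.15 and that of all genes tested 0.01. No member had ranges that did not overlap between the groups, against 0.0506% of all genes tested. In the authors' deposited table, which lists 8 of the 9 and leaves out Dlk1, the smallest adjusted p among them was 0.163, for Mest.

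**Figure D1:**
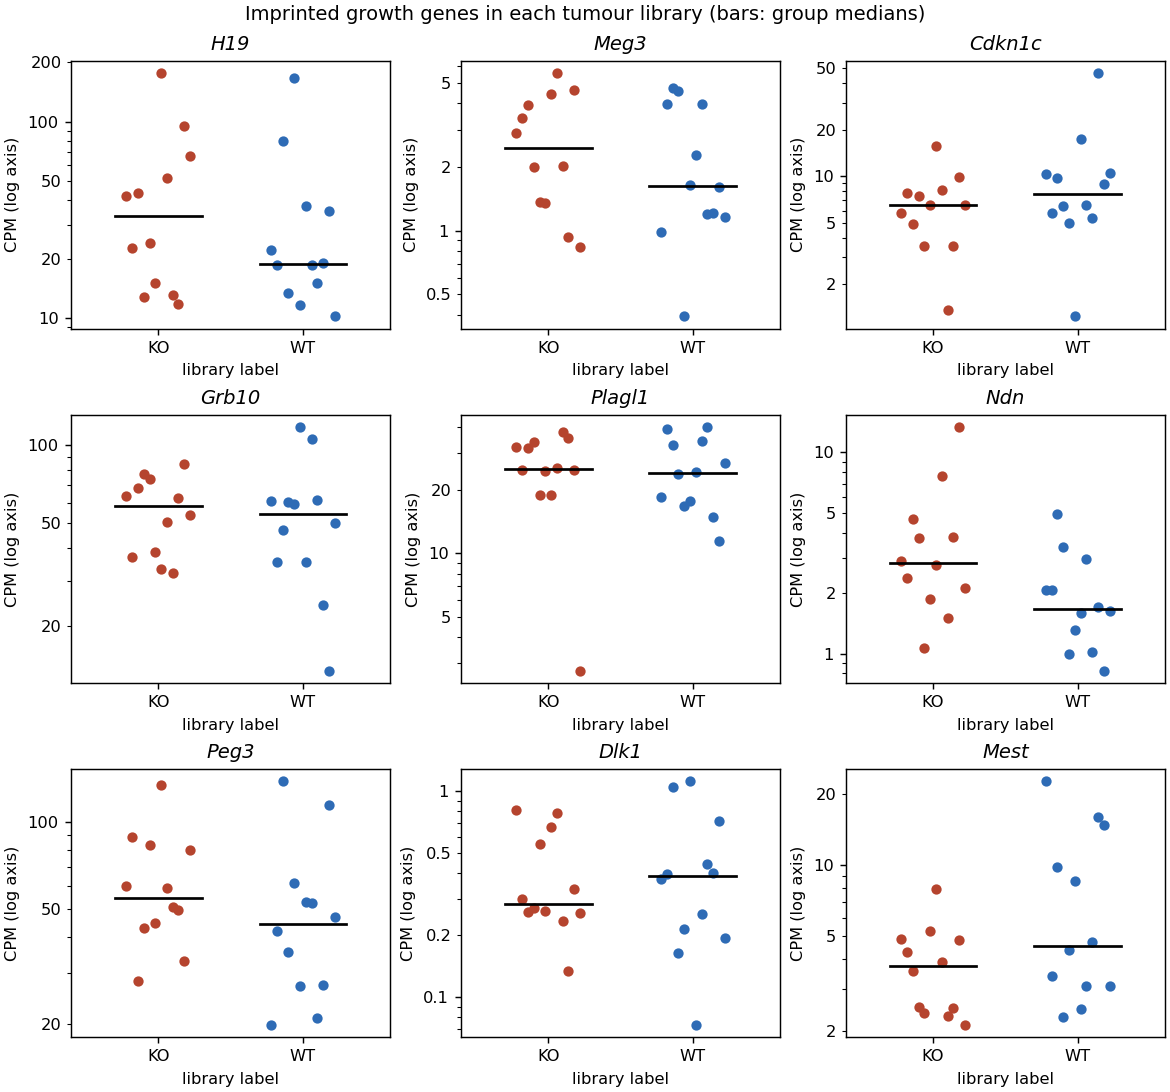
Level of each imprinted growth gene (CPM, log axis) in the 12 libraries labelled KO and the 12 labelled WT; each point is 1 tumour library and each bar a group median. The groups overlap for every gene, and single tumours stand out, among them KO 7 and WT 17 for H19 (176 and 167 CPM) and WT 22 for Cdkn1c (46.4 CPM).

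The maternally read members came first. H19, a long noncoding RNA abundant in fetal tissue (chromosome 7, 142129267 to 142131883, minus strand, GRCm39), ran from 11.8 over a median of 33.0 to 176 CPM in libraries labelled KO. In those labelled WT it ran from 10.2 over 18.9 to 167 CPM. The groups overlapped almost completely, and KO 7 (176 CPM) and WT 17 (167 CPM) stood above all others, followed by KO 11 at 95.1 CPM. The log2 change, KO over WT, was 0.36 ± 0.51 (SE, adjusted p = 0.716, edgeR). It was -0.05 without KO 7 and 0.90 without WT 17.

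Meg3, a long noncoding RNA of the Dlk1 domain (chromosome 12, 109506879 to 109538163, plus strand), ran from 0.837 over a median of 2.45 to 5.55 CPM in KO libraries and from 0.394 over 1.63 to 4.73 CPM in WT libraries. KO 8 was highest and WT 17 lowest, and 8 of 12 KO libraries lay above the WT median. For Meg3 the log2 change was 0.27 ± 0.38 (SE, adjusted p = 0.713, edgeR). It was 0.13 without KO 8, 0.41 without WT 15, and -0.10 with either the adipocyte and skeletal muscle scores or the fibroblast score as covariates. Of the exonic bases of Meg3, 33.1% are shared with Rtl1 on the opposite strand. No strand option stands in the counting command, so reads from these bases cannot be given to either gene.

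Cdkn1c, which encodes the cyclin-dependent kinase inhibitor p57 (chromosome 7, 143012076 to 143014802, minus strand), ran from 1.36 over a median of 6.55 to 15.7 CPM in KO libraries and from 1.24 over 7.69 to 46.4 CPM in WT libraries. WT 22 was at 46.4 CPM and the next highest, WT 19, at 17.3 CPM. The log2 change was -0.71 ± 0.41 (SE, unadjusted p = 0.0929, adjusted p = 0.338, edgeR). It was -0.23 without WT 22 (unadjusted p = 0.504), -0.91 without KO 7 (unadjusted p = 0.0367) and -0.83 without WT 18 (unadjusted p = 0.0371). With adipocyte and skeletal muscle scores as covariates it was -0.997 (unadjusted p = 0.0309), and the smallest adjusted p over all alternatives was 0.202. With limma voom the log2 change of Cdkn1c was -0.40 (unadjusted p = 0.290, adjusted p = 0.646).

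Grb10, an adaptor that restrains insulin and insulin-like growth factor receptor signalling (chromosome 11, 11880499 to 11987428, minus strand), had nearly equal medians of 58.1 CPM in KO and 54.5 CPM in WT libraries. Its KO values lay between 32.0 and 84.8 CPM, inside the WT range of 13.5 (WT 23) to 117 CPM (WT 18). For Grb10 the log2 change was 0.01 ± 0.26 (SE, adjusted p = 0.983, edgeR), and 6 of 12 KO libraries lay above the WT median.

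Among the paternally read members, Plagl1, a zinc-finger transcription factor that regulates other imprinted genes (chromosome 10, 12966576 to 13007438, plus strand), ran from 2.77 over a median of 25.2 to 37.9 CPM in KO libraries and from 11.5 over 24.2 to 39.9 CPM in WT libraries. A single tumour, KO 12, held the value of 2.77 CPM, well below the other 23. KO 12 was unlike the others in further measures. It had the fewest reads in genes (18789250), the lowest summed fibroblast markers (560 CPM) and the highest summed luminal epithelium markers (8990 CPM). The log2 change was 0.05 ± 0.26 (SE, adjusted p = 0.930, edgeR).

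Ndn encodes necdin, a MAGE family protein that restrains cell division and is known from neurons and fat precursors (chromosome 7, 61998025 to 61999676, plus strand). It ran from 1.07 over a median of 2.82 to 13.3 CPM in KO libraries and from 0.826 over 1.66 to 4.93 CPM in WT libraries. KO 11 (13.3 CPM) and KO 8 (7.66 CPM) lay above every WT library, and 10 of 12 KO libraries lay above the WT median. The log2 change was 0.97 ± 0.37 (SE, unadjusted p = 0.0145, adjusted p = 0.184, edgeR). It was 0.62 without KO 11, where the unadjusted p was 0.0634, and 0.55 with limma voom (unadjusted p = 0.140, adjusted p = 0.492).

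Summed adipocyte markers had medians of 399 CPM in KO and 200 CPM in WT libraries, and fibroblast markers 1983 and 1207 CPM. Skeletal muscle markers had medians of 188 and 45.8 CPM, and T cell markers 13.7 and 14.2 CPM. A positive log2 change was found in 8 of 8 adipocyte, 7 of 8 fibroblast, 7 of 7 tested skeletal muscle and 8 of 8 T cell markers. At an unadjusted p under 0.05 (edgeR) these were 1, 1, 6 and 5, where 10% of all genes tested were higher in KO libraries. None passed the adjusted threshold. T cell markers summed to 119 CPM in KO 11 and 77.9 CPM in KO 10, and the next highest, KO 4, was at 24.9 CPM. Among other lists, 8 of 8 macrophage markers had a positive log2 change (3 at an unadjusted p under 0.05, edgeR). Of the myoepithelium markers 1 of 8 did, with 0 at that level. The share of all genes with a positive log2 change was not counted. With adipocyte and skeletal muscle scores as covariates, the log2 change of Ndn was 0.26 (adjusted p = 0.501, edgeR), and with the fibroblast score it was 0.47 (adjusted p = 0.178, edgeR). In whole tumours, fewer cells of a type and less RNA per cell cannot be told apart.

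Peg3, a large zinc-finger protein linked to cell death and maternal behaviour (chromosome 7, 6706891 to 6733443, minus strand), ran from 28.2 over a median of 54.7 to 135 CPM in KO libraries and from 19.8 over 44.4 to 139 CPM in WT libraries. WT 15, KO 7 and WT 23 were the highest, so both groups reached similar maxima. For Peg3 the log2 change was 0.24 ± 0.31 (SE, adjusted p = 0.681, edgeR), with 0.07 without KO 7 and 0.47 without WT 15. Of its exonic bases, 7.53% are shared with Peg3os on the opposite strand.

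Dlk1, a Notch-related transmembrane protein of fetal tissue and fat precursors (chromosome 12, 109418411 to 109429262, plus strand), was near the detection limit, with 125 reads over the 12 KO and 154 over the 12 WT libraries. WT 18 (1.12 CPM) and WT 15 (1.05 CPM) were highest. The log2 change was -0.14 ± 0.37 (SE, adjusted p = 0.857, edgeR), which turned to 0.08 without WT 18.

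Mest, an alpha/beta-hydrolase family protein made in fetal mesoderm and expanding fat (chromosome 6, 30733505 to 30783580, plus strand), ran from 2.12 over a median of 3.74 to 7.91 CPM in KO libraries. In WT libraries it ran from 2.29 over 4.56 to 22.5 CPM. WT 13 (22.5 CPM), WT 22 (15.97 CPM) and WT 23 (14.8 CPM) lay above every KO library, and the lower ends of the groups coincided. The log2 change was -1.03 ± 0.37 (SE, unadjusted p = 0.00922, adjusted p = 0.160, edgeR), and 8 of 12 KO libraries lay below the WT median. It was -0.77 without WT 13 and -0.43 with limma voom (adjusted p = 0.563). With adipocyte and skeletal muscle scores as covariates it was -1.07. Of its exonic bases, 5.70% are shared with Copg2 on the opposite strand and 6.29% with a gene without a symbol on the same strand.

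**Figure D2:**
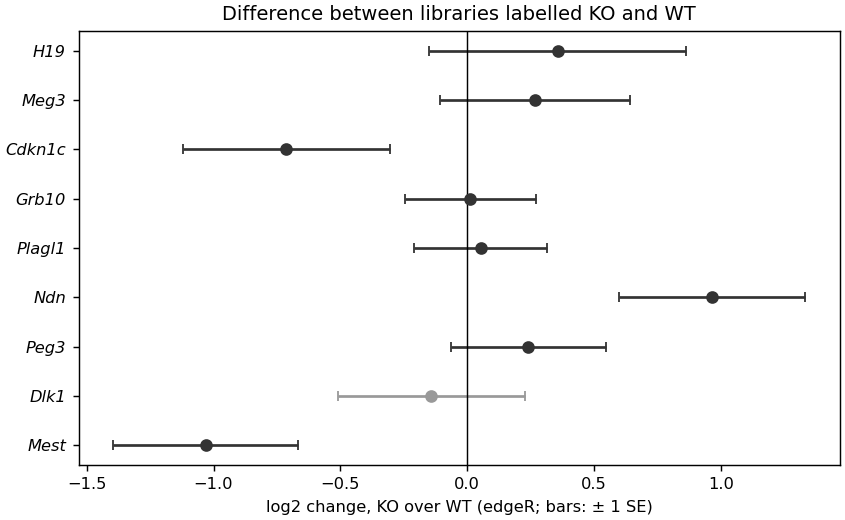
Log2 change of each imprinted growth gene between libraries labelled KO and WT (edgeR; bars, 1 SE to either side; the line marks no change; Dlk1, which failed the low-count filter, in grey). Ndn lies highest at 0.97 and Mest lowest at -1.03, and none of the 9 passed an adjusted p of 0.05.

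Per length of exon (RPKM), Grb10 and H19 were the most abundant, with medians over 24 libraries of 10.7 and 9.87. Plagl1 (4.66), Peg3 (4.35) and Cdkn1c (3.29) followed, then Ndn (1.27), Meg3 (0.155), Mest (0.129) and Dlk1 (0.0648). Grb10 exceeded H19 in 11 of 24 libraries, Plagl1 exceeded Peg3 in 16, Peg3 exceeded Cdkn1c in 16 and Meg3 exceeded Mest in 14, so these neighbours in the order exchanged places between tumours. Ndn exceeded Meg3 in 24 of 24. The annotated exons of Mest (31852 bases) and Meg3 (12957 bases) merge many transcripts, which lowers their RPKM.

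Between tumours of the same label these genes varied more than most. The SD of log2 CPM within groups was 1.22 for H19, 1.05 for Cdkn1c, 0.97 for Meg3, 0.90 for Mest, 0.87 for Ndn, 0.82 for Plagl1, 0.77 for Peg3 and 0.70 for Grb10. The median over all genes tested was 0.34, and the 8 members lay between percentiles 82.6 and 96.4 of that distribution. Counting noise adds to this SD at low levels, and the mean CPM of Meg3, Ndn and Mest stood at percentiles 18.6, 20.3 and 27.4 of the genes tested.

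To ask which members moved together, log2 CPM was centred on each group's mean and correlated over the 24 libraries. In all, 122 relations were computed (28 between members, 88 between a member and a marker score, 6 between a member and a gene of its locus or pathway), and p-values from permutations within groups were adjusted over all of them. Of these, 14 passed an adjusted p of 0.05. Between members 1 of 28 did. Meg3 and Ndn had r = 0.65 and rho = 0.62 (permutation p = 0.0005, adjusted p = 0.0122). The relation was 0.60 within KO libraries, 0.74 within WT libraries and 0.60 without WT 15 and WT 17, the libraries farthest from the median of Meg3. The median r over the 28 pairs was 0.14.

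Meg3 and Ndn both followed markers of stromal cells. With the fibroblast score, Meg3 had r = 0.82 and Ndn r = 0.84 (rho 0.82 and 0.85, both at the smallest permutation p possible, 1e-05, adjusted p = 0.000305). With the adipocyte score, Ndn had r = 0.84 (rho 0.86, permutation p = 1e-05, adjusted p = 0.000305) and Meg3 r = 0.59 (rho 0.61, permutation p = 0.0034, adjusted p = 0.0377). With the endothelium score, Meg3 had r = 0.63 (rho 0.62, permutation p = 0.00112, adjusted p = 0.0159) and Ndn r = 0.64 (rho 0.56, permutation p = 0.00151, adjusted p = 0.0184).

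Meg3 also followed the pericyte score (r = 0.57, rho 0.59, permutation p = 0.00429, adjusted p = 0.0432). Ndn followed the T cell score (r = 0.68, rho 0.72, permutation p = 0.00101, adjusted p = 0.0159) and ran against the luminal epithelium score (r = -0.55, rho -0.50, permutation p = 0.00496, adjusted p = 0.0432). Without KO 11 and WT 15, the relation of Ndn was 0.80 with the fibroblast, 0.83 with the adipocyte, 0.56 with the T cell and -0.37 with the luminal score. Without WT 15 and WT 17, that of Meg3 was 0.79 with the fibroblast and 0.60 with the adipocyte score. Marker scores share libraries and are related to each other, so these are not separate relations.

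Grb10 followed the myoepithelium score (r = 0.66, rho 0.65, permutation p = 0.00083, adjusted p = 0.0159), and r was 0.62 without WT 18 and WT 23. WT 18, the library with the highest Grb10, also had the highest summed myoepithelial markers (3294 CPM, against a WT median of 487 CPM). Plagl1 ran against the proliferation score (r = -0.49, rho -0.48, permutation p = 0.00466, adjusted p = 0.0432). This r was -0.69 within KO and -0.34 within WT libraries. It was -0.27 without KO 12 and WT 23, so its size depended on those libraries. H19, Cdkn1c, Peg3 and Mest passed the threshold with no marker score. The highest among these 4 was H19 with the skeletal muscle score (r = 0.47, rho 0.51, permutation p = 0.0237, adjusted p = 0.132). An r over both labels can hide opposite signs within them. Cdkn1c with the endothelium score had r = 0.77 within KO and -0.69 within WT libraries (0.06 over both, 0.52 without WT 18 and WT 22). With the myoepithelium score these were 0.60 and -0.60, and for Mest with the pericyte score 0.64 and -0.35. Differences in r between the labels were not tested.

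**Figure D3:**
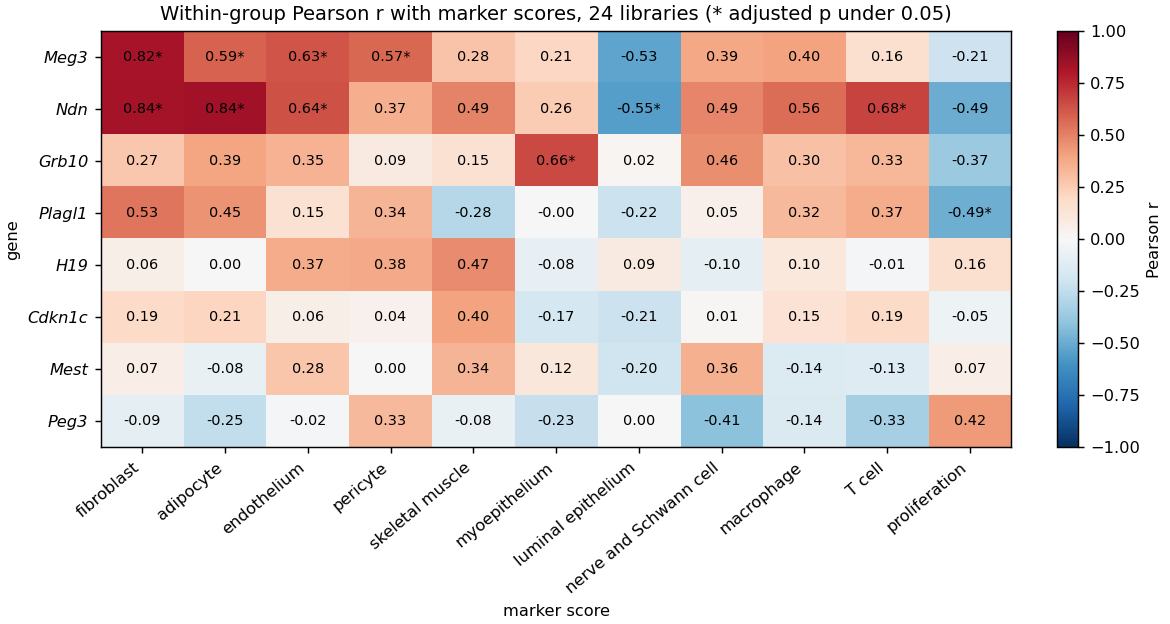
Pearson r between each imprinted growth gene (rows) and each marker score (columns), from group-centred log2 CPM over 24 libraries; a star marks an adjusted p under 0.05, and Dlk1, which failed the low-count filter, is left out. Meg3 has its highest r with the fibroblast score (0.82), Ndn with the adipocyte and fibroblast scores (both 0.84) and Grb10 with the myoepithelium score (0.66).

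Locus partners were read next. Meg3 and Rian, noncoding RNAs of the same maternal transcription unit, had r = 0.80 and rho = 0.83 (permutation p = 1e-05, adjusted p = 0.000305), and r was 0.86 without WT 15 and WT 17. H19 and Igf2, the paternally read growth factor that shares enhancers with H19, had r = 0.65 (permutation p = 0.00117, adjusted p = 0.0159) but rho = 0.39 (permutation p = 0.0629). KO 7 held 14.99 CPM of Igf2 and WT 17 held 24.65 CPM, against group medians of 0.892 and 0.870 CPM. Without these libraries r was 0.29, so the relation rested on them.

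Cdkn1c had r = 0.50 with its neighbour Phlda2, a placental growth regulator (rho 0.27, permutation p = 0.0273, adjusted p = 0.144), and r = -0.31 with Kcnq1ot1, the noncoding RNA that silences the paternal Cdkn1c domain (rho -0.20, permutation p = 0.178, adjusted p = 0.388). Mest and Copg2 had r = 0.27 (rho 0.35, permutation p = 0.147, adjusted p = 0.346) and Plagl1 and Igf2 r = 0.00 (rho -0.07, permutation p = 0.996, adjusted p = 0.996). These values also moved when the farthest libraries were left out. Without WT 18 and WT 22, r of Cdkn1c was 0.27 with Phlda2 and -0.26 with Kcnq1ot1. That of Mest and Copg2 was 0.09 without WT 13 and WT 22, and that of Plagl1 and Igf2 -0.40 without KO 12 and WT 23. Relations of Dlk1, and pairs whose partner failed the low-count filter, such as Magel2 and Snrpn with Ndn, were not computed.

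**Figure D4:**
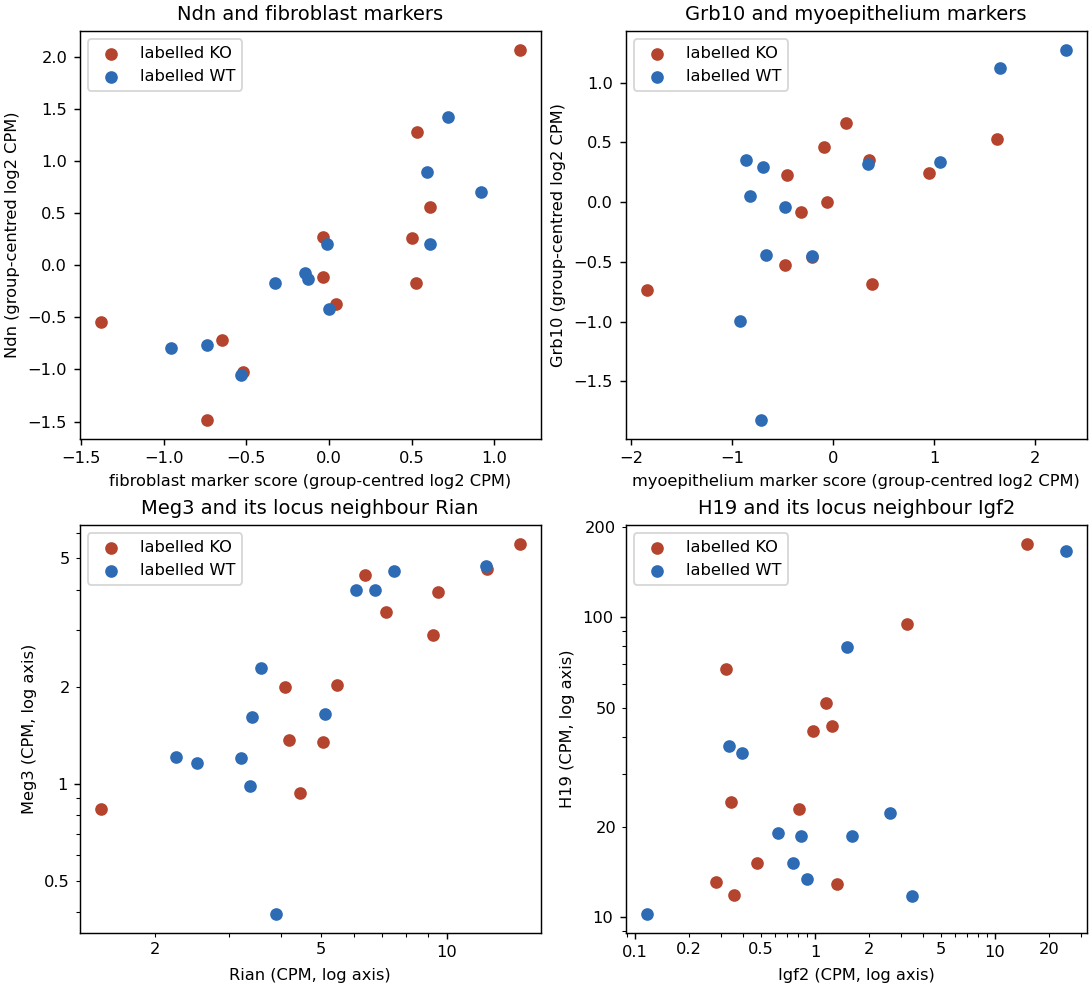
Top, group-centred log2 CPM of Ndn against the fibroblast score and of Grb10 against the myoepithelium score; bottom, CPM (log axes) of Meg3 against Rian and of H19 against Igf2; each point is 1 of 24 libraries, coloured by label. Ndn (r = 0.84), Grb10 (r = 0.66) and Meg3 (r = 0.80) follow their partners across the range, whereas KO 7 and WT 17 stand apart at the upper right for H19 and Igf2 (r = 0.65, and 0.29 without them).

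The genes most like each member over the 24 libraries, by Pearson r of group-centred log2 CPM, are given as a description, since they were picked as the highest of all genes tested. For Meg3 they were the collagens Col3a1 (0.85) and Col1a2 (0.82) and the microfibril gene Mfap5 (0.84), of which both collagens are in the fibroblast list. For Ndn they were Ebf1, a transcription factor of B cells and fat and stromal precursors (0.92), Ms4a4d (0.90) and Lsp1 (0.90). Grb10 was most like Smad3, a transducer of TGF-beta signals (0.86), Hs3st6 (0.85) and Fbxl21 (0.81).

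Plagl1 was most like Cgnl1, a junction protein of epithelial cells (0.96, and 0.89 without KO 12 and WT 23), Pdzd2 (0.93) and Pik3c2b, a lipid kinase (0.93). Mest was most like Tm7sf3 (0.81), Enc1 (0.78) and Xxylt1 (0.76). For Peg3 the highest were Tnc, which encodes the matrix protein tenascin C (0.74), Pdzrn3 (0.71) and Ddias (0.71), and for H19 Ecscr (0.73), Ripk3 (0.72) and Nuak1 (0.70). For Cdkn1c they were Rnaset2b (0.72), A530032D15Rik (0.67) and Wfdc17 (0.67). Without KO 7 and WT 17, r of H19 with Ecscr was 0.53.

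Other imprinted genes gave 39 tested of 61 matched, and none passed the adjusted threshold. At an unadjusted p under 0.05, 4 were higher and 5 lower in KO libraries, against 10% and 8.90% of all genes tested, and the median log2 change was -0.02. The smallest adjusted p was 0.0877, for Gab1, a docking protein imprinted in placenta, at 70.5 ± 11.01 CPM in KO and 89.4 ± 13.2 CPM in WT libraries (SD, n = 12; log2 change -0.34 ± 0.09, edgeR). Next were Tspan32 (log2 change 1.05), Ppp1r9a (-0.42) and Blcap (0.23). The most abundant were Gnas (763 and 843 CPM in KO and WT) and Cd81 (310 and 315 CPM).

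Of 26 tested genes of insulin-like growth factor and insulin signalling, the pathway that Grb10 restrains and Igf2 feeds, 0 passed the adjusted threshold, with 1 higher and 3 lower at an unadjusted p under 0.05, against 18.9% of all genes tested (median log2 change -0.13). Irs2, an insulin receptor substrate, was at 43.6 ± 7.56 CPM in KO and 58.7 ± 15.4 CPM in WT libraries (SD, n = 12), with 0 of 12 KO libraries above the WT median (log2 change -0.43 ± 0.12, adjusted p = 0.110, edgeR). Grb14, an adaptor related to Grb10, had a log2 change of -0.46, Igfbp6 of 0.80 and Pappa of -1.37 ± 0.58 (SE). The medians of Pappa were alike, at 1.59 CPM in KO and 1.64 CPM in WT libraries, and its WT maximum was 23.1 CPM. The binding protein Igfbp5 was the most abundant, at 11605 CPM in KO and 12265 CPM in WT libraries, followed by Pik3r1, a regulatory subunit of phosphoinositide 3-kinase, at 932 and 895 CPM.

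A further list of 19 genes held cyclin-dependent kinase inhibitors, the family of Cdkn1c, with cyclins, their kinases, Rb1, E2f1, Trp53 and Mki67. Of these 0 passed, with 1 higher and 3 lower at an unadjusted p under 0.05, against 18.9% of all genes tested (median 0.01). Ccnd1, which encodes cyclin D1, was at 246 ± 79.0 CPM in KO and 359 ± 135 CPM in WT libraries (SD, n = 12; log2 change -0.55 ± 0.20, adjusted p = 0.168, edgeR). The log2 changes of Ccnd2, Trp53 and Cdkn2d were -0.88, -0.36 and 0.31. Mki67, a marker of dividing cells and with Ccnd1 the most abundant of the list, was at 324 CPM in KO and 341 CPM in WT libraries. Of 19 imprint readers and maintainers, 0 passed, with 0 higher and 3 lower at an unadjusted p under 0.05, against 10% and 8.90% of all genes tested (median -0.07). Zfp57, a zinc-finger protein that guards methylated imprints, was at 0.658 CPM in KO and 1.35 CPM in WT libraries (log2 change -1.03 ± 0.37, adjusted p = 0.164, edgeR). Smchd1, Dnmt3a and Tet1 had log2 changes of -0.25, -0.21 and -0.38. The most abundant were Trim28, the corepressor that Zfp57 recruits (213 and 217 CPM in KO and WT), and Ehmt2, a histone methyltransferase (205 and 214 CPM).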

How the data were processed

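The authors deposited whole-number read counts per gene for 24 libraries, made from STAR alignments (version not given in the sources used here) per the submitters' processing notes and counted with featureCounts 2.0.0 on GRCm39, per the file headers. The authors' deposited table holds log2 fold changes and log2 CPM, an F score, a signed fold, and p-values with adjusted p-values. Symbols came from that table for 13972 IDs and from RefSeq alone for 30790, and 1556 had none. Members and lists were chosen with earlier results of these data known.

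The test was two-sided in edgeR 4.0.16 (R 4.3.3), after filterByExpr and TMM scaling of the counts, with Benjamini-Hochberg adjustment at 0.05. It was tested on simulated data. DESeq2 1.42.0 and limma 3.58.1 were alternatives. Correlations used log2 CPM (prior count 2), 100000 resamples within groups, and marker lists with at least 3 tested genes. Named genes were the members, Nr0b2, the 3 genes most like each member, and, per list, those past the threshold, up to 4 of smallest p and the 2 most abundant. Locus partners and genes overlapping a member are named besides. The labels name no batch. Replicates are numbered 1 to 12 for KO and 13 to 24 for WT, so order of handling and genotype cannot be told apart.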

Additional observations from a re-analysis of the deposited data

How the results depend on the processing

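No member passed the adjusted threshold under any alternative, including an adjusted p of 0.1 in edgeR in place of 0.05; the smallest adjusted p was 0.08 in DESeq2, which was set against 0.05 alone. The count over all genes, 50, was 501 with DESeq2, 110 with adipocyte and skeletal muscle scores as covariates, 441 with the fibroblast score, 31 without KO 11 and KO 12, and 231 at an adjusted p of 0.1. Leaving out 1 library gave 9 (without WT 18) to 72 (without WT 14). It was below 50 by more than 1.5 times without KO 5 (31), KO 6 (32), KO 7 (18), KO 10 (12), KO 11 (15), WT 13 (15), WT 15 (30), WT 17 (10), WT 21 (32), WT 22 (27), WT 23 (12) or WT 24 (22). The cause was not tested.

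Small log2 changes turned sign. That of Grb10 was -0.00063 with no filter, -0.101 with adipocyte and muscle covariates, -0.069 with the fibroblast covariate and -0.059 without KO 11 and KO 12. H19 was -0.012 and Meg3 -0.104 with adipocyte and muscle covariates, and Meg3 -0.099 and Plagl1 -0.097 with the fibroblast covariate. Leaving out 1 library gave -0.086 to 0.165 for Grb10, -0.017 to 0.161 for Plagl1, -0.055 to 0.90 for H19 and -0.282 to 0.080 for Dlk1. The ranges were 0.62 to 1.16 for Ndn and -1.18 to -0.77 for Mest. The median r over pairs of members, 0.14, was 0.028 without WT 15 and 0.166 without KO 12. No paired analysis was possible because the groups share no replicate number. Dlk1 had 125 reads over the KO and 154 over the WT libraries, and its SE (0.37) was like that of Mest and Ndn, which had more.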

Other observations

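Some imprinted partners of the members were high in single tumours. WT 22, the library with the highest Cdkn1c (46.4 CPM), also held the highest Phlda2 (13.4 CPM). WT 18, with the lowest Cdkn1c (1.24 CPM), held the highest Kcnq1ot1 (23.3 CPM), and the second highest was in WT 22 (14.3 CPM). Mest was highest in WT 13 and WT 22, where Copg2, whose exons overlap those of Mest, was at 91.5 and 77.1 CPM. These tumours were picked after their values were seen.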
